A study of Homo sapiens with 12 samples.

Results

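RNA was compared between HepG2 cells carrying the HDAC1_S434A mutant (S434A) and HepG2 cells with wild-type HDAC1 (WT), both without H89. The comparison used 6 of the 12 libraries of the study, 3 per genotype, chosen by their titles. HepG2 is a human liver cancer line, the other 6 libraries are the same genotypes with H89, which inhibits protein kinase A (PKA), and the study states 3 biological replicates per group. The sources used here do not give how the mutant cells were made, whether they are 1 clone, whether the endogenous HDAC1 gene was altered, or the dose and time of H89. The libraries held 37187794, 27763604 and 31976287 counts in WT replicates 1 to 3, and 18533717, 17562754 and 18328153 counts in S434A replicates 1 to 3. A filter on low counts left 14435 genes for testing. Levels below are CPM, counts scaled to library size with TMM factors, which also correct for library make-up.

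HDAC1 is a class I histone deacetylase. It removes acetyl groups from histones and other proteins within the Sin3, NuRD, CoREST and MiDAC complexes, while the related HDAC3 works in a complex with NCOR1. PKA is switched on by cyclic AMP, the second messenger of glucagon and adrenaline in liver cells. It phosphorylates serines and threonines, and alanine cannot be phosphorylated. In the GENCODE 29 coding sequence of transcript HDAC1-201, which has 482 codons, the codon that S434A names encodes serine, as the name requires. It is shown in capitals with 10 codons on each side, because it is the position that separates the genotypes.
HDAC1 codon of S434A: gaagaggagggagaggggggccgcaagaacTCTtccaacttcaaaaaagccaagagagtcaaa
Counts per gene do not show this change, so the genotype labels could not be checked by them.

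HDAC1 itself (ENSG00000116478.12_7, hg19 chromosome 1, 32757684 to 32799236) was at 682, 704 and 679 CPM in WT and at 713, 752 and 659 CPM in S434A. The S434A libraries lay on both sides of the WT libraries. The log2 fold change was 0.04 (SE 0.07, edgeR adjusted p = 0.681) and did not pass. The estimate was -0.02 with another scaling (RLE factors). With TMM factors from the 6 untreated libraries alone it was 0.23 and passed (adjusted p = 0.035), as it did at 0.23 with the correction for GC content and length described below and S434A replicate 1 left out (adjusted p = 0.011).

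The 3 S434A libraries differed from each other far more than the 3 WT libraries did. The biological coefficient of variation, the replicate spread beyond counting error, was 0.351 in S434A and 0.0197 in WT, against 0.0556 and 0.0775 in S434A and WT with H89. The lowest and highest S434A libraries were over 2-fold apart for 25.6% of genes, against 2% of genes in WT. S434A replicate 1 was the lowest in 3207 and replicate 3 the highest in 3056 of these 3692 genes. S434A replicates 2 and 3 were over 2-fold apart for 367 genes, replicates 1 and 2 for 2497 and replicates 1 and 3 for 3439, against 100 to 146 between WT libraries.

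The differences between S434A libraries ran along GC content. In S434A replicate 1 the quintile of genes with the lowest GC content had a median log2 ratio to the WT mean of -1.70, and the quintile with the highest one of 0.77. The same medians were -0.41 and 0.58 in replicate 2, and -0.02 and 0.24 in replicate 3. The shortest quintile of genes was at -0.40, -0.40 and -0.41 in the 3 libraries, and the longest at -0.23, 0.33 and 0.47. Across genes, 38.7% of the variance in log2 fold change went with GC content and length together. Results below that moved by over 1.5 times, or lost or gained their call, are therefore also given after a smooth trend of every library along GC content and length had been taken out ("trends removed").

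**Figure D1:**
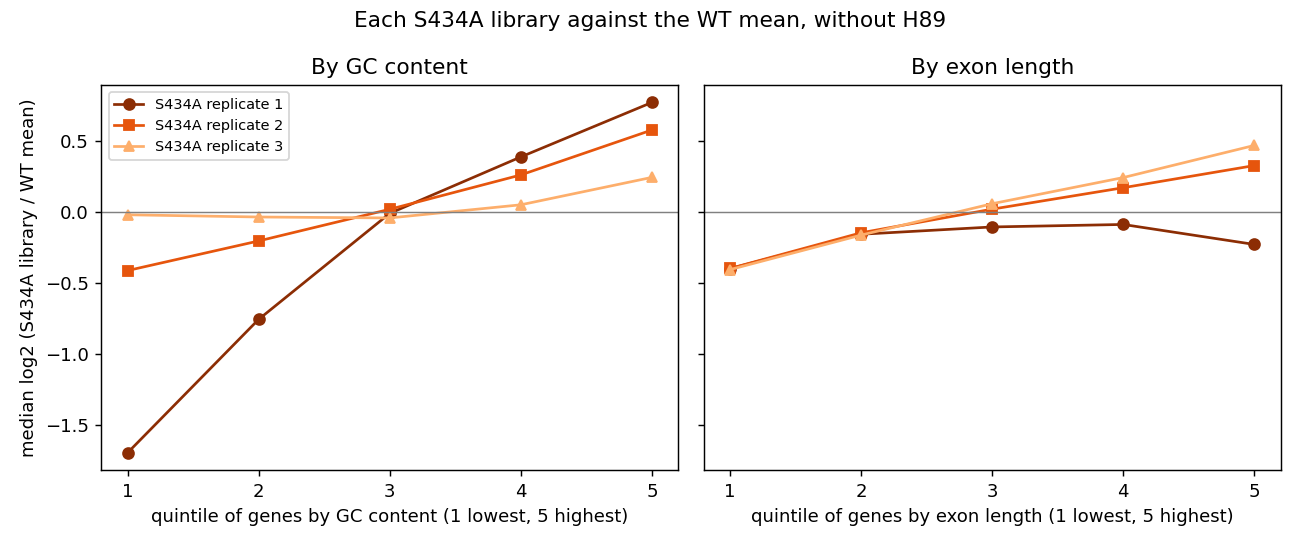
Median log2 ratio of each S434A library to the WT mean (y axis, log2 units) over quintiles of the tested genes by GC content (left) and exon length (right), cells without H89. Replicate 1 runs from -1.70 to 0.77 over GC content, replicate 3 from -0.02 to 0.24, and all 3 libraries start near -0.40 for the shortest genes.

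The WT libraries without H89 also stood apart from the other 9 libraries of the series. In them 19.5 to 20% of counts came from cytosolic ribosomal protein genes, against 9.55 to 11.5% in S434A without H89 and 7.39 to 7.96% in the 6 libraries with H89. Mitochondrially encoded mRNAs took 1.48 to 1.51% in WT without H89, against 7.02, 4.09 and 3.16% in S434A replicates 1 to 3 and 4.91 to 6.26% with H89. Exact 95% intervals of these shares were at most 0.0298 percentage points wide in the 6 untreated libraries and cover counting error only.

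Of 14435 genes, 1604 (11.1%) were called higher and 1460 (10.1%) lower in S434A, where a call is a fold change over 2 with an edgeR adjusted p under 0.05. At any fold, 3461 genes (24%) rose and 3401 (23.6%) fell, 47.5% in all. Over all genes, 15.3% rose and 17.4% fell without S434A replicate 2, and 27.9% rose and 26.9% fell without replicate 3. The libraries of the genotypes did not overlap for 9047 genes (62.7%). The balance of directions depended on the scaling, since TMM factors from the 6 untreated libraries alone gave 2395 higher and 960 lower and moved the median of all genes by 0.19 in log2 units. Trends removed left 479 higher (3.35%) and 1050 lower (7.35%) of 14280 genes with a GC value. In all, 949 (31%) of the 3040 calls with a GC value were then called in the same direction. In the lowest GC quintile 1.58% of genes rose and 24.6% fell, and in the highest 48.1% rose and 14.2% fell.

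Genes called in the full comparison, with trends removed and without S434A replicate 1 numbered 231 higher and 645 lower. The genes named first below come from these, as the 12 rises and 12 falls with the widest gap between the nearest libraries of the genotypes. They were chosen by their own values, so their separation is a description.

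The leading rises included genes of secreted matrix, a surface receptor and nuclear regulators. HSPG2 (hg19 chromosome 1, 22148737 to 22263803) encodes perlecan, a proteoglycan of basement membranes, and was at 17.2, 17.7 and 17.9 CPM in WT and at 157, 114 and 61.6 CPM in S434A. All S434A libraries were above all WT libraries, with replicate 1 the highest and replicate 3 the lowest. The log2 fold change was 2.66 (SE 0.34, adjusted p = 0.0019), or 1.09 with trends removed. FN1, fibronectin, an abundant matrix and plasma glycoprotein, was at 3911, 4084 and 4102 CPM in WT and at 20248, 17465 and 11775 CPM in S434A. Its log2 fold change was 2.03 (SE 0.20, adjusted p = 0.00089), and 2.17 with trends removed. The GC content of FN1 is 42.2%, below the median of 49.0% over all tested genes. LRP1, the endocytic receptor for lipoprotein remnants and proteases, was at 126, 136 and 129.8 CPM in WT and at 897, 718 and 395 CPM in S434A. It rose by 2.36 (SE 0.29, adjusted p = 0.0018), or by 1.20 with trends removed. FRAS1, another matrix protein, was at 36.1, 36.4 and 36.9 CPM in WT and at 159, 159 and 119.7 CPM in S434A. It rose by 1.999 (SE 0.13, adjusted p = 0.00054), or by 1.17 with trends removed.

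Among the other leading rises were 3 nuclear regulators. POLR2A, the largest subunit of RNA polymerase II, was at 27.6, 31.97 and 31.4 CPM in WT and at 165, 130.03 and 80.8 CPM in S434A (log2 fold change 2.05, SE 0.26). MED12, a subunit of the Mediator kinase module, was at 11.1, 10.4 and 11.3 CPM in WT and at 59.5, 45.1 and 28.6 CPM in S434A (2.03, SE 0.27). NCOA6, a nuclear receptor coactivator, was at 15.7, 16.5 and 16.8 CPM in WT and at 50.9, 54.02 and 42.2 CPM in S434A (1.58, SE 0.12). Trends removed, they were at 1.18, 1.28 and 1.08. RELN, the secreted glycoprotein reelin, stood out from most leading rises because S434A replicate 1 was its lowest library. It was at 233, 242 and 247 CPM in WT and at 600.3, 854 and 770.5 CPM in S434A (1.62, SE 0.14, and 1.13 with trends removed). The calcium pump gene ATP2B4 rose by 1.61, the calcineurin-regulated transcription factor gene NFATC2 by 1.66, and the membrane protein genes CNTNAP1 and SEZ6L2 by 2.06 and 2.01. With trends removed these were at 1.24, 1.13, 1.28 and 1.25. S434A replicate 3 was the lowest library for 11 of the 12 leading rises. Their exon lengths ran from 4110 to 20859 bases with a median of 10314, against 4734 for all genes tested. Their GC content ran from 42.2%, that of FN1, to 64.5% with a median of 52.7%, against 49.0% for all genes tested.

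The leading falls included genes of mitochondria, RNA processing, protein turnover and the cell cycle. The exon lengths of the 12 leading falls ran from 616 to 12600 bases with a median of 1784.5, against 4734 for all genes tested. Their GC content ran from 35.2 to 50.2% with a median of 41.8%, against 49.0% for all genes tested. CSTA (hg19 chromosome 3, 122044095 to 122060816), the cysteine protease inhibitor cystatin A, was at 17.4, 15.7 and 17.5 CPM in WT and at 3.01, 3.10 and 3.69 CPM in S434A. The 3 S434A libraries lay close together, and the log2 fold change was -2.37 (SE 0.16, adjusted p = 0.00054), or -1.35 with trends removed. LSM3, part of the ring that binds U6 snRNA, was at 219, 213 and 209.7 CPM in WT and at 34.2, 39.00 and 54.4 CPM in S434A (-2.33, SE 0.18, adjusted p = 0.00055). CKS2, a small partner of the cell cycle kinase CDK1, was at 670.2, 677 and 671 CPM in WT and at 113, 129 and 182 CPM in S434A (-2.25, SE 0.18, and -1.39 with trends removed). CDK1, which was named after its values were seen, was at 199.97, 185 and 198 CPM in WT and at 16.1, 51.9 and 69.9 CPM in S434A (-2.08, SE 0.49, adjusted p = 0.015, and -1.34 with trends removed). Without S434A replicate 2 its adjusted p was 0.055.

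Proteins that fold or degrade other proteins were among the falls too. HSPE1, the co-chaperone of mitochondrial HSP60, was at 491, 517 and 494 CPM in WT and at 75.9, 98.5 and 133 CPM in S434A (-2.29, SE 0.21). PSMA4, a proteasome core subunit, was at 441, 432 and 427 CPM in WT and at 44.7, 84.5 and 123 CPM in S434A (-2.36, SE 0.35, and -2.23 with trends removed). SELENOK, a selenoprotein of the endoplasmic reticulum, fell by 2.15 on the log2 scale and POLR2K, a subunit shared by the nuclear RNA polymerases, by 2.27, or by 1.43 and 1.29 with trends removed. S434A replicate 1 was the lowest and replicate 3 the highest library for all 12 leading falls.

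The respiratory chain genes among the leading falls were UQCRB of complex III and NDUFB3 of complex I. UQCRB was at 522, 518 and 534 CPM in WT and at 79.7, 115 and 146 CPM in S434A (-2.21, SE 0.22). NDUFB3 was at 217, 203 and 200.4 CPM in WT and at 35.1, 39.1 and 58.5 CPM in S434A (-2.23, SE 0.20, and -1.46 with trends removed). The ATP synthase gene ATP5MK fell by 2.13, the mitochondrial inner membrane protein gene HIGD1A by 2.42 and MIX23 by 2.34, or by 1.58, 1.60 and 1.46 with trends removed. HIGD1A was at 289.6, 279 and 301 CPM in WT and at 19.7, 59.9 and 82.3 CPM in S434A, with replicate 1 well below the other two. Pseudogenes named after the gene are annotated for 9 of these 12 genes, 26 of them for HSPE1, 17 for HIGD1A, 4 each for LSM3 and MIX23 and 1 to 3 for UQCRB, POLR2K, NDUFB3, ATP5MK and SELENOK. Reads can be shared with such copies, so those levels are uncertain.

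**Figure D2:**
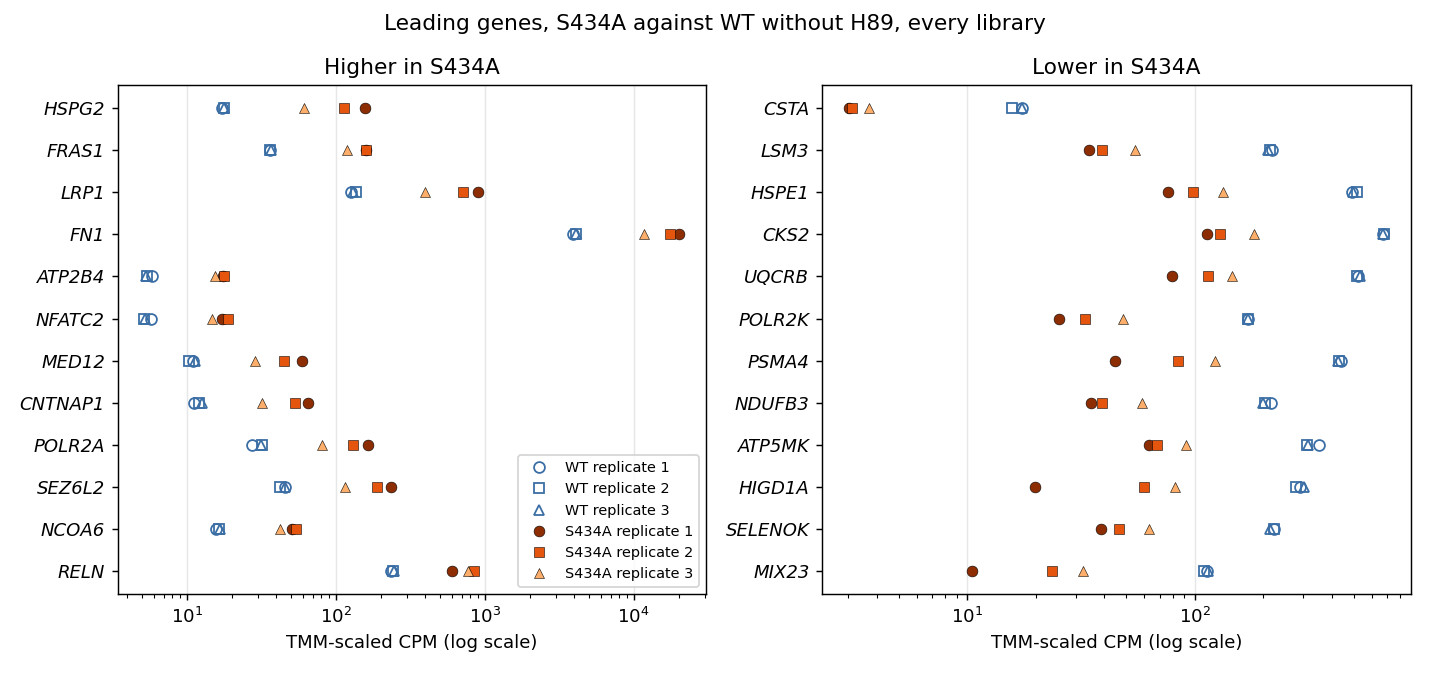
TMM-scaled CPM (log x axis) of the 12 leading rises and 12 leading falls in every WT (open) and S434A (filled) library without H89. The WT libraries lie on top of each other, the S434A libraries spread, and no S434A library overlaps WT, as for HSPG2 at 17.2 to 17.9 against 61.6 to 157.

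The genotype difference at these 24 genes was set against that in the H89-treated cells in a fit of all 12 libraries. The genes were chosen by their gap without H89 and those libraries enter this fit too, so a pass is largely fixed by the choice and is a description. With H89, S434A minus WT was -0.26 to -0.04 in log2 units for the 12 rises and -0.12 to 0.38 for the 12 falls, and none of the 24 passed. Over all 14435 genes edgeR called 0 with H89 (0%), and 589 had an unadjusted p under 0.05. This fit shares its estimate of spread over all groups, among them S434A without H89 with a coefficient of variation of 0.351. That coefficient was 0.0556 and 0.0775 in S434A and WT with H89. The test can therefore miss differences with H89, so 0 calls do not show that the genotypes are alike there. The difference between the genotype effects passed for all 24, and for 48% of all genes. HSPG2 means were 111 CPM in WT with H89 and 93.0 CPM in S434A with H89, in the range of S434A without H89. FN1 means were 15167 and 13115 CPM with H89, and RELN means were 967 and 906 CPM. LSM3 means were 26.2 and 29.2 CPM with H89, UQCRB means 93.9 and 102 CPM, and PSMA4 means 93.4 and 106 CPM. CSTA means were 0.772 and 1.003 CPM, below S434A without H89. At all 24 genes the WT libraries without H89 did not overlap any of the other 9 libraries.

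**Figure D3:**
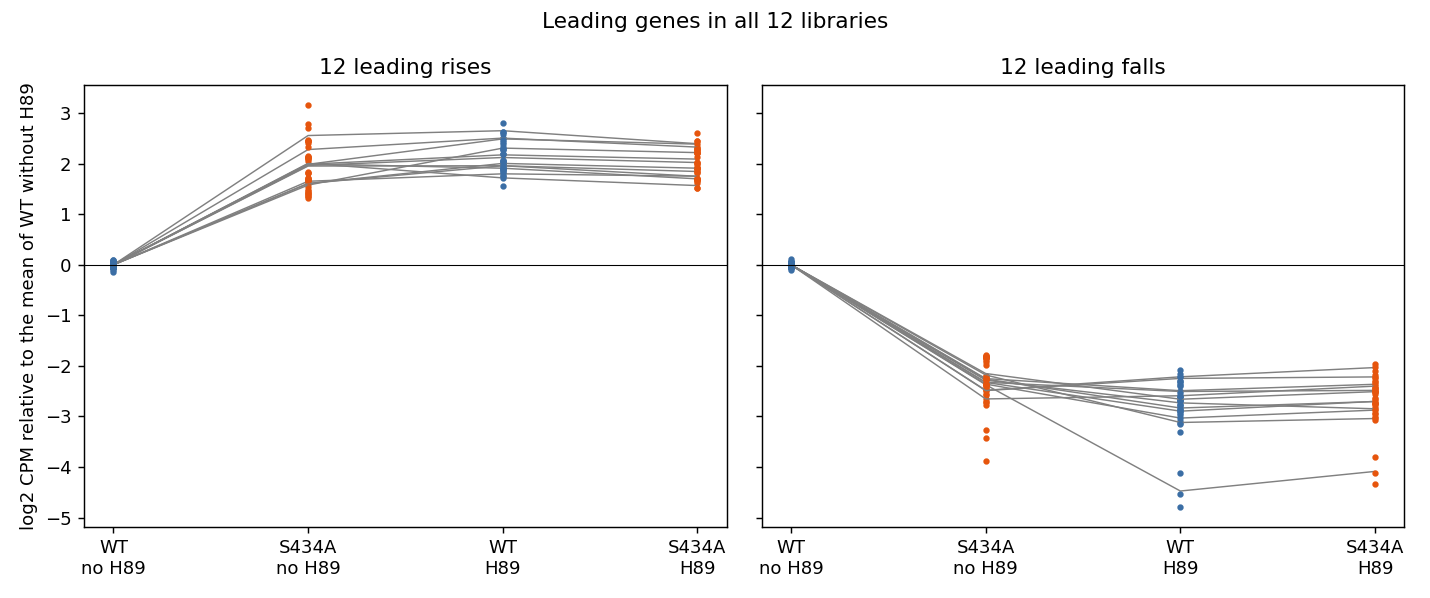
Log2 CPM of the 12 leading rises (left) and 12 leading falls (right) in all 12 libraries, relative to the mean of WT without H89, with grey lines joining the group means of a gene. The 3 other groups lie on the same side of WT without H89, and with H89 the genotypes differ by -0.26 to 0.38.

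Basement membrane and matrix genes were higher in S434A. Of 14 tested, 12 rose and none fell. Their median was 1.62 in log2 units, and that of all genes -0.04. LAMA5, a laminin chain, was at 89.9, 84.95 and 87.1 CPM in WT and at 646, 487 and 271 CPM in S434A (2.42, SE 0.31). LAMB2 rose by 1.92, the proteoglycan gene AGRN by 2.06 and COL18A1 by 1.65. LAMC1 was at 140.4, 142 and 146 CPM in WT and at 365, 372 and 299.5 CPM in S434A, and rose by 1.28 (SE 0.10). LAMB1 rose by 1.24 and the laminin-binding gene NID1 by 1.64. Trends removed, where 17.6% of all genes rose and 25.1% fell, 10 of the 14 rose and 1 fell with a median of 0.78, LAMA5 was at 0.75, LAMB2 at 0.94, AGRN at 0.48 and COL18A1 at 0.30, LAMB1 at 0.82, and LAMC1 at 0.86. LAMA3 (0.84, adjusted p = 0.050, and 0.07 with trends removed) and COL4A2 (-0.11) did not pass, and with trends removed COL4A2 was the 1 fall at -1.40 (adjusted p = 0.0029). Both rest on few reads, with LAMA3 at 0.61 to 0.81 CPM in WT and 0.86 to 1.61 CPM in S434A. COL4A2 was at 0.77 to 1.15 CPM in WT and 0.72 to 1.35 CPM in S434A.

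Endocytic receptors went the same way in most members. Of 15 tested, 9 rose and 2 fell (median 1.16), against 24% and 23.6% of all genes. With trends removed 10 rose and 3 fell (median 0.42), against 17.6% and 25.1% of all genes. SORL1, a sorting receptor, was at 87.9, 86.5 and 86.6 CPM in WT and at 209, 264 and 222 CPM in S434A (1.41, SE 0.10, and 0.75 with trends removed). IGF2R, which carries lysosomal enzymes, was at 125, 125 and 127 CPM in WT and at 511, 448 and 303 CPM in S434A (1.74, SE 0.19, and 0.94 with trends removed). LRP5 rose by 1.33, or by 0.37 with trends removed. The falls were M6PR, a smaller receptor for lysosomal enzymes, at -0.71, and ASGR1, the asialoglycoprotein receptor of hepatocytes, at -0.26 (adjusted p = 0.044). ASGR1 lost its call without any one WT library or without S434A replicate 2 (adjusted p 0.10 to 0.14), and with DESeq2, upper-quartile or 6-library factors. It was larger, at -0.70 (adjusted p = 0.0047), with trends removed and passed at -0.34 without S434A replicate 1.

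Of 23 genes of the actin cytoskeleton and targets of SRF and YAP, 17 rose and 3 fell, against 24% and 23.6% of all genes. Their median was 0.89, or 0.44 with trends removed. THBS1, thrombospondin, was at 24.4, 22.5 and 25.5 CPM in WT and at 55.3, 66.6 and 62.3 CPM in S434A (1.35, SE 0.11). CCN2, a YAP target, was at 197, 193 and 199 CPM in WT and at 473, 408 and 335 CPM in S434A (1.05, SE 0.13). VCL, which links actin to the membrane, rose by 0.91. The 3 falls were ANKRD1, a YAP target, at -1.41 (adjusted p = 0.030), and the tropomyosin genes TPM4 (-0.44) and TPM1 (-0.39). ANKRD1 did not pass with trends removed (-0.72), nor without any one WT library or S434A replicate 2 (adjusted p 0.081 to 0.099), and TPM4 and TPM1 did not pass with 6-library factors (-0.25 and -0.20). With trends removed TPM4 and TPM1 were at -1.02 and -0.81 and passed. TPM1 also did not pass without any one WT library (adjusted p 0.055 to 0.067). Of 18 genes of autophagy and lysosomes, 11 rose and 2 fell (median 0.96), against 24% and 23.6% of all genes. With trends removed 8 rose and 4 fell (median 0.33), against 17.6% and 25.1% of all genes. ATG9A rose by 1.38 and the proton pump subunit gene ATP6V0A1 by 1.27, or by 0.70 and 0.44 with trends removed, and GABARAPL1 fell by 0.67 and CTSL by 0.65 (0.43 with trends removed).

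Nuclear genes of the respiratory chain fell together. Of 40 tested, 37 fell and none rose, with a median of -1.14, and 33 fell with trends removed. NDUFA1 was at 317, 329 and 307 CPM in WT and at 81.5, 85.2 and 108 CPM in S434A (-1.79, SE 0.12). NDUFA4 was at 689.9, 720.2 and 649.7 CPM in WT and at 150.2, 150.2 and 211 CPM in S434A (-2.01, SE 0.15, and -1.22 with trends removed). SDHB, the iron-sulfur subunit of complex II, was at 212, 211 and 210.4 CPM in WT and at 85.4, 86.6 and 103 CPM in S434A (-1.21, SE 0.09). In these genes the 3 S434A libraries were clear of WT, with replicate 3 the highest in each. Among those that did not pass were the catalytic subunit SDHA (0.15) and NDUFV2 (-0.30). With trends removed SDHA was at -0.36 and passed as a fall (adjusted p = 0.018), and NDUFV2 was at 0.47 without passing. NDUFV2 rests on few reads, at 0.43 to 0.70 CPM in WT and 0.22 to 0.57 CPM in S434A.

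The mRNAs encoded by mitochondrial DNA went the other way. Of 13 tested, 12 rose and 1 fell (median 1.83, 1.25 without S434A replicate 1). MT-ND5 was at 339, 356 and 356 CPM in WT and at 3534, 1539.8 and 1069 CPM in S434A (2.55, SE 0.45, adjusted p = 0.0051). MT-CO1, the core subunit of complex IV, was at 6072, 6037 and 6009 CPM in WT and at 26400.3, 14581 and 10715 CPM in S434A (1.51, SE 0.32). Replicate 1 was the highest in both, by over 1.5 times the next. MT-ND3 was at 1303, 1236 and 1302 CPM in WT and at 1055, 925 and 915 CPM in S434A, and fell by 0.41 (SE 0.08). With trends removed it was at 0.23 and did not pass, and the other 12 still rose.

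Most ribosomal protein genes were lower in every S434A library. Of 78 cytosolic ribosomal protein genes, 75 fell and none rose (median -1.26, and 67 fell with trends removed). RPS2 was at 13141, 13579 and 12950.4 CPM in WT and at 5259, 5142 and 6134 CPM in S434A (-1.26, SE 0.09). RPS9 was at 4786, 4883 and 4648 CPM in WT and at 1535, 1473 and 1906 CPM in S434A (-1.54, SE 0.11). RPS28 (0.11), RPL28 (-0.13) and RPLP2 (-0.06) did not pass. RPL28 passed as a fall with trends removed (-0.77, adjusted p = 0.0013) and without S434A replicate 1 (-0.28, adjusted p = 0.011), while RPS28 and RPLP2 were at 0.037 and -0.015 with trends removed. These genes have many pseudogene copies, so single members are uncertain. Of 34 mitochondrial ribosomal protein genes, 28 fell and 1, MRPS2, rose (0.74, and 0.49 with trends removed). MRPL36 was at 77.6, 80.1 and 72.3 CPM in WT and at 29.4, 26.9 and 30.9 CPM in S434A (-1.40, SE 0.09).

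Of 27 proteasome subunit genes, 21 fell and none rose (median -0.87). With trends removed 13 fell and the median was -0.36. PSMB5, which carries the chymotrypsin-like site, was at 1698, 1736 and 1686 CPM in WT and at 839.7, 789 and 877 CPM in S434A (-1.03, SE 0.07). PSMB1 fell by 1.06 but was at -0.13 and did not pass with trends removed. Of 21 genes of the LSM and snRNP core, which build the spliceosome, 17 fell and 3 rose (median -1.09). SNRPD2 was at 449, 479.6 and 451 CPM in WT and at 178, 179 and 206 CPM in S434A (-1.29, SE 0.08). SNRPG fell by 2.03, or by 1.03 with trends removed. The 3 rises were larger or U1-bound proteins, the helicase gene SNRNP200 (1.37, 0.60 with trends removed), SNRPA (0.93) and SNRNP70 (0.59, and -0.23 without passing with trends removed). SNRNP70 had an adjusted p of 0.052 to 0.055 without S434A replicate 2, WT replicate 2 or WT replicate 3. LSM2 did not pass (-0.07, and 0.23 with trends removed).

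The plasma proteins made by hepatocytes went both ways, as did all genes. Of 26 tested, 9 rose and 8 fell, against 24% and 23.6% of all genes. Without S434A replicate 2 only 1 rose and 6 fell, where 15.3% of all genes rose and 17.4% fell. APOA1, the main protein of high-density lipoprotein, was at 8474, 8477 and 8472 CPM in WT and at 4761, 4381 and 4452 CPM in S434A (-0.90, SE 0.06, adjusted p = 0.00054). APOA2 was at 4097, 4263 and 4262 CPM in WT and at 2003, 1982 and 2096 CPM in S434A (-1.05, SE 0.06). AMBP was at 8028, 8119.6 and 7764 CPM in WT and at 4556, 4072 and 4338 CPM in S434A (-0.88, SE 0.07). In these 3 genes the S434A libraries lay close together. HP, haptoglobin, was at 2433, 2461 and 2338 CPM in WT and at 771, 796 and 1100.2 CPM in S434A (-1.44, SE 0.15), and HP shares sequence with its relative HPR. APOH fell by 1.67 (SE 0.26, and 0.88 with trends removed). The fibrinogen gene FGG fell by 1.66 (SE 0.38, and 0.90 with trends removed), with an adjusted p of 0.053 without S434A replicate 2. The fibrinogen genes did not move together. FGB did not pass at -1.21 (adjusted p = 0.095), or at -0.79 with trends removed. Without S434A replicate 1 FGB passed at -0.80 (adjusted p = 0.0028), while FGA was among the rises.

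Albumin and alpha-fetoprotein varied widely between the S434A libraries. ALB was at 37289, 36753 and 37165 CPM in WT and at 2923, 17716 and 23154 CPM in S434A. All 3 S434A libraries were below WT, but replicate 1 lay several times below the others. The log2 fold change was -1.34 (SE 0.67, adjusted p = 0.147) and did not pass. Without S434A replicate 1 it was -0.86 and passed (adjusted p = 0.00044), and it also passed at -1.34 with all 12 libraries in the fit, at -1.32 with DESeq2 and at -1.80 with limma-voom. With trends removed it was at -0.80 and did not pass (adjusted p = 0.218). AFP, the fetal counterpart of albumin, was at 9770.1, 9569 and 9769 CPM in WT and at 773, 3645 and 4221 CPM in S434A (-1.75, SE 0.58, adjusted p = 0.047, and -1.03 with trends removed). Without S434A replicate 1 it was at -1.30 and passed, and without any 1 of the other 5 libraries it did not (adjusted p 0.051 to 0.11).

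Replicate 1 was the highest S434A library in all secreted protein genes that rose except FGA. AGT, angiotensinogen, was at 1129, 1135 and 1156 CPM in WT and at 2715, 2332 and 1734 CPM in S434A (0.99, SE 0.16). VTN, vitronectin, was at 219, 215 and 219.5 CPM in WT and at 473, 374 and 281 CPM in S434A (0.79, SE 0.18). Its adjusted p was 0.053 to 0.057 without any one WT library or without S434A replicate 2. SERPINA1, the antitrypsin gene, was at 9299.8, 9443 and 9499 CPM in WT and at 14317, 12605 and 10606 CPM in S434A (0.41, SE 0.11, adjusted p = 0.027). It was at 0.02 and did not pass with trends removed, and without any one WT library or S434A replicate 2 its adjusted p was 0.088 to 0.099.

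**Figure D4:**
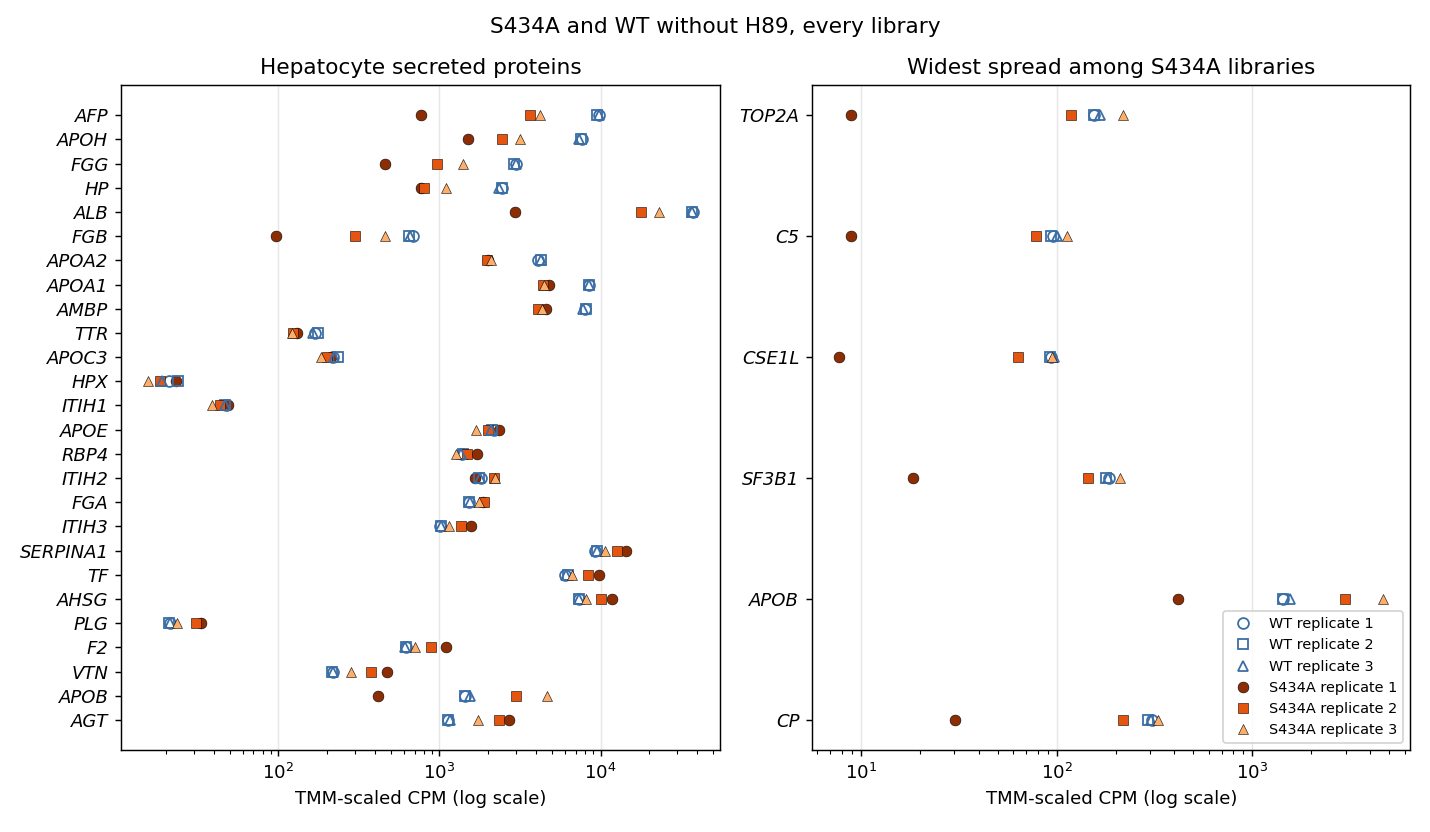
TMM-scaled CPM (log x axis) in every WT (open) and S434A (filled) library without H89, for the 26 hepatocyte secreted protein genes ordered by log2 fold change (left) and the 6 genes with the widest S434A spread (right). APOA1, APOA2 and AMBP show 3 S434A libraries together, while ALB runs from 2923 to 23154 and TOP2A from 8.93 to 218.

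Transcription factors of hepatocytes rose or did not pass. Of 16 tested, 8 rose and none fell (median 0.71, 0.37 with trends removed), against 24% and 23.6% of all genes. Without S434A replicate 1 the falls were 2, where 29% of all genes fell. HNF4A was at 154, 155 and 148 CPM in WT and at 358, 321 and 232 CPM in S434A (0.996, SE 0.16, and 0.40 with trends removed). FOXA2 was at 29.04, 27.99 and 27.95 CPM in WT and at 71.4, 62.6 and 46.2 CPM in S434A (1.08, SE 0.17). GATA4 rose by 1.13 (0.44 with trends removed) and FOXA1 by 0.80. NR1H4, the bile acid receptor, was at 56.8, 54.3 and 57.6 CPM in WT and at 9.31, 30.5 and 40.7 CPM in S434A (-1.07, adjusted p = 0.118). Without S434A replicate 1 it was at -0.66 and passed (adjusted p = 0.0024), and with trends removed it was at -0.46 and did not (adjusted p = 0.206).

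Enzymes of liver metabolism did not move as 1 block. Of 14 genes of the urea cycle and amino acid breakdown, 7 fell and none rose, while 2 rose without S434A replicate 1 or 3. ARG1, arginase, was at 68.2, 70.1 and 69.1 CPM in WT and at 12.9, 16.8 and 22.4 CPM in S434A (-1.99, SE 0.20, and -1.25 with trends removed). GNMT, which uses S-adenosylmethionine, was at 45.3, 44.1 and 45.2 CPM in WT and at 21.4, 21.8 and 21.9 CPM in S434A (-1.05, SE 0.08). Of 12 genes of xenobiotic and bile acid metabolism, 2 rose and 3 fell, against 24% and 23.6% of all genes. SULT2A1, a steroid sulfotransferase, was at 1257, 1199 and 1231 CPM in WT and at 275, 328 and 459 CPM in S434A (-1.80, SE 0.19, and -1.13 with trends removed). GSTA1 fell by 1.79 (0.99 with trends removed) and UGT2B7 by 1.15 (-0.18, without passing, with trends removed), and the rises were CYP8B1 (1.32) and CYP1A1 (0.62). CYP1A1 had an adjusted p of 0.060 to 0.081 without any one WT library or S434A replicate 2.

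Genes that make fatty acids and triglycerides numbered 15, of which 8 rose and 0 fell, and 4 rose and 2 fell with trends removed. SCD, the desaturase, was at 553, 569 and 579 CPM in WT and at 1043, 1069 and 886 CPM in S434A (0.82, SE 0.09). FASN was at 235, 226 and 232 CPM in WT and at 1180.0, 925 and 549 CPM in S434A (1.94, SE 0.27, and 0.57 with trends removed). Of 17 cholesterol genes 5 rose and 4 fell (median -0.08), against 24% and 23.6% of all genes. With trends removed 2 rose and 8 fell (median -0.53), against 17.6% and 25.1% of all genes. FDPS, of isoprenoid synthesis, was at 235, 241 and 229.8 CPM in WT and at 138, 128 and 131 CPM in S434A (-0.83, SE 0.07), while SREBF2 rose by 1.12 but was at 0.28 without passing with trends removed. Of 18 glycolysis genes 10 rose and 3 fell, 6 rose and 3 fell with trends removed, and 5 rose without S434A replicate 2. HK2 was at 89.3, 94.1 and 90.7 CPM in WT and at 185, 206 and 164 CPM in S434A (1.02, SE 0.10, and 0.67 with trends removed). LDHA fell by 0.49, and by 0.30 with 6-library factors.

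The partners of HDAC1 moved in both directions, as did all genes. Among 31 subunits of the complexes of class I HDACs 13 rose and 8 fell, against 24% and 23.6% of all genes. With trends removed 6 rose and 10 fell, against 17.6% and 25.1% of all genes. SIN3A, the scaffold of the Sin3 complex, was at 21.4, 21.4 and 21.4 CPM in WT and at 50.1, 51.03 and 45.03 CPM in S434A (1.19, SE 0.09, and 0.69 with trends removed). SAP18, a small Sin3-associated protein, was at 324, 324 and 309.9 CPM in WT and at 117, 118 and 129 CPM in S434A (-1.40, SE 0.07, and -0.75 with trends removed). DNTTIP1, the dimerising subunit of MiDAC, was at 105, 106 and 103 CPM in WT and at 56.02, 52.02 and 53.9 CPM in S434A (-0.95, SE 0.07). The S434A libraries lay close together in all 3. HDAC3 was at 153, 155 and 152 CPM in WT and at 96.4, 90.9 and 95.4 CPM in S434A (-0.70, SE 0.07). HDAC2, the closest relative of HDAC1, was at 74.8, 77.9 and 76.5 CPM in WT and at 20.3, 51.03 and 62.9 CPM in S434A (-0.77, adjusted p = 0.147). Without S434A replicate 1 it was at -0.42 and passed (adjusted p = 0.0083), and with trends removed at -0.46 (adjusted p = 0.0057).

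The acetyltransferases that oppose HDACs were also mixed, with 4 rises and 2 falls of 13, and with 9 rises without S434A replicate 1. EP300 was at 12.6, 13.3 and 12.8 CPM in WT and at 39.1, 46.3 and 38.4 CPM in S434A (1.68, SE 0.12, and 0.94 with trends removed). Its relative CREBBP rose by 1.56 (0.58 with trends removed) and KAT7 by 1.05 (0.68). KAT5 fell by 0.65 (1.06 with trends removed). Of 10 genes known to be raised by HDAC inhibitors, 1 rose and 1 fell, against 24% and 23.6% of all genes, 4 rose without S434A replicate 3, and 2 rose and 2 fell with trends removed. The rise was CLU, at 565, 569.5 and 567 CPM in WT and at 1227, 985 and 741 CPM in S434A (0.80, SE 0.18), or 0.34 with trends removed, and the fall was GADD45B (-0.74). Without S434A replicate 2 the adjusted p of CLU was 0.052. The inhibitor-induced cell cycle inhibitor CDKN1A did not pass (-0.08, and -0.28 with trends removed).

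Genes of cAMP signalling changed at about the rate of all genes. Of 13 cAMP and CREB-responsive genes, 4 rose and 3 fell, against 24% and 23.6% of all genes, and 2 rose and 3 fell with trends removed. EGR1 was at 8.42, 9.01 and 7.89 CPM in WT and at 17.6, 17.3 and 15.3 CPM in S434A (0.99, SE 0.13). CREM, which encodes CREB-like activators and repressors, was at 21.2, 20.7 and 20.8 CPM in WT and at 7.91, 8.64 and 10.96 CPM in S434A (-1.19, SE 0.16, and -0.71 with trends removed). CRTC2, a CREB coactivator, rose by 1.04 (0.60 with trends removed), and NR4A1 rose by 1.15 but did not pass at 0.21 with trends removed. PCK1, the textbook CREB target of gluconeogenesis, did not pass at -0.05, or at -0.33 with trends removed. Of 12 PKA subunits, anchors and inhibitors, 3 rose and 2 fell, none rose with trends removed, and 4 fell without S434A replicate 1. PKIG, a PKA inhibitor, was at 76.3, 79.6 and 77.5 CPM in WT and at 42.3, 39.8 and 42.4 CPM in S434A (-0.91, SE 0.08). PRKACA, the catalytic subunit, rose by 0.81 and the anchor AKAP13 by 1.33, and with trends removed both missed the test at 0.24 and 0.54.

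Proliferation and p53 genes showed no single direction. Of 21 cell cycle genes 6 rose and 6 fell, against 24% and 23.6% of all genes. With trends removed 3 rose and 2 fell, and without S434A replicate 2 it was 2 and 1. CCNE1, the cyclin of S phase entry, was at 87.5, 87.99 and 88.00 CPM in WT and at 53.1, 51.7 and 49.2 CPM in S434A (-0.77, SE 0.07). CCND1 was at 118, 121 and 130.3 CPM in WT and at 171, 173 and 163 CPM in S434A (0.45, SE 0.07), or 0.31 without passing with trends removed. Of 16 p53 targets 1 rose and 4 fell. TP53I3 was at 45.8, 46.7 and 45.1 CPM in WT and at 26.3, 26.3 and 25.6 CPM in S434A (-0.82, SE 0.08), and SESN2, a stress-induced regulator of mTORC1, rose by 1.10 (0.66 with trends removed).

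The 6 genes with the widest spread among S434A libraries had replicate 1 lowest and replicate 3 highest in every case. They were chosen for that spread, so it is a description. TOP2A, the topoisomerase of dividing cells, was at 156, 156 and 166 CPM in WT and at 8.93, 119 and 218 CPM in S434A (-0.47, SE 0.91, adjusted p = 0.707, and -0.28 with trends removed). SF3B1, a splicing factor, was at 184, 178 and 183 CPM in WT and at 18.5, 144 and 212 CPM in S434A. The complement gene C5 was at 95.7, 93.7 and 100.5 CPM in WT and at 8.88, 78.1 and 113 CPM in S434A. CSE1L, CP and APOB had the same order. APOB, the protein of low-density lipoprotein, was at 1434, 1439.9 and 1552 CPM in WT and at 415, 2983 and 4663 CPM in S434A. One library lay below WT and the others above, so the fold change of 0.86 (SE 0.74, adjusted p = 0.385, and 0.48 with trends removed) did not pass, and without S434A replicate 1 it was 1.37 and passed (adjusted p = 0.0002).

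Very long ubiquitin ligase genes showed the same split. Of 11 tested, 4 rose and none fell, and 9 rose without S434A replicate 1, where 30.2% of all genes rose and 29% fell. Their median log2 ratio to WT was -1.21, 0.88 and 1.55 in S434A replicates 1 to 3. HUWE1 was at 55.99, 59.7 and 58.6 CPM in WT and at 223, 225 and 167 CPM in S434A (1.82, SE 0.13, and 0.96 with trends removed). UBR4 rose by 1.89 and RNF213 by 1.83, or by 0.84 and 0.73 with trends removed. BIRC6 was at 9.12, 10.01 and 10.2 CPM in WT and at 2.91, 18.1 and 37.8 CPM in S434A (1.003, adjusted p = 0.335, and 0.62 with trends removed). HERC1 was at 7.29, 8.27 and 8.59 CPM in WT and at 8.45, 19.3 and 27.5 CPM in S434A (1.19, adjusted p = 0.054, and 0.61 with trends removed). In these 2 genes replicate 1 was near or below WT and replicate 3 well above it.

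**Figure D5:**
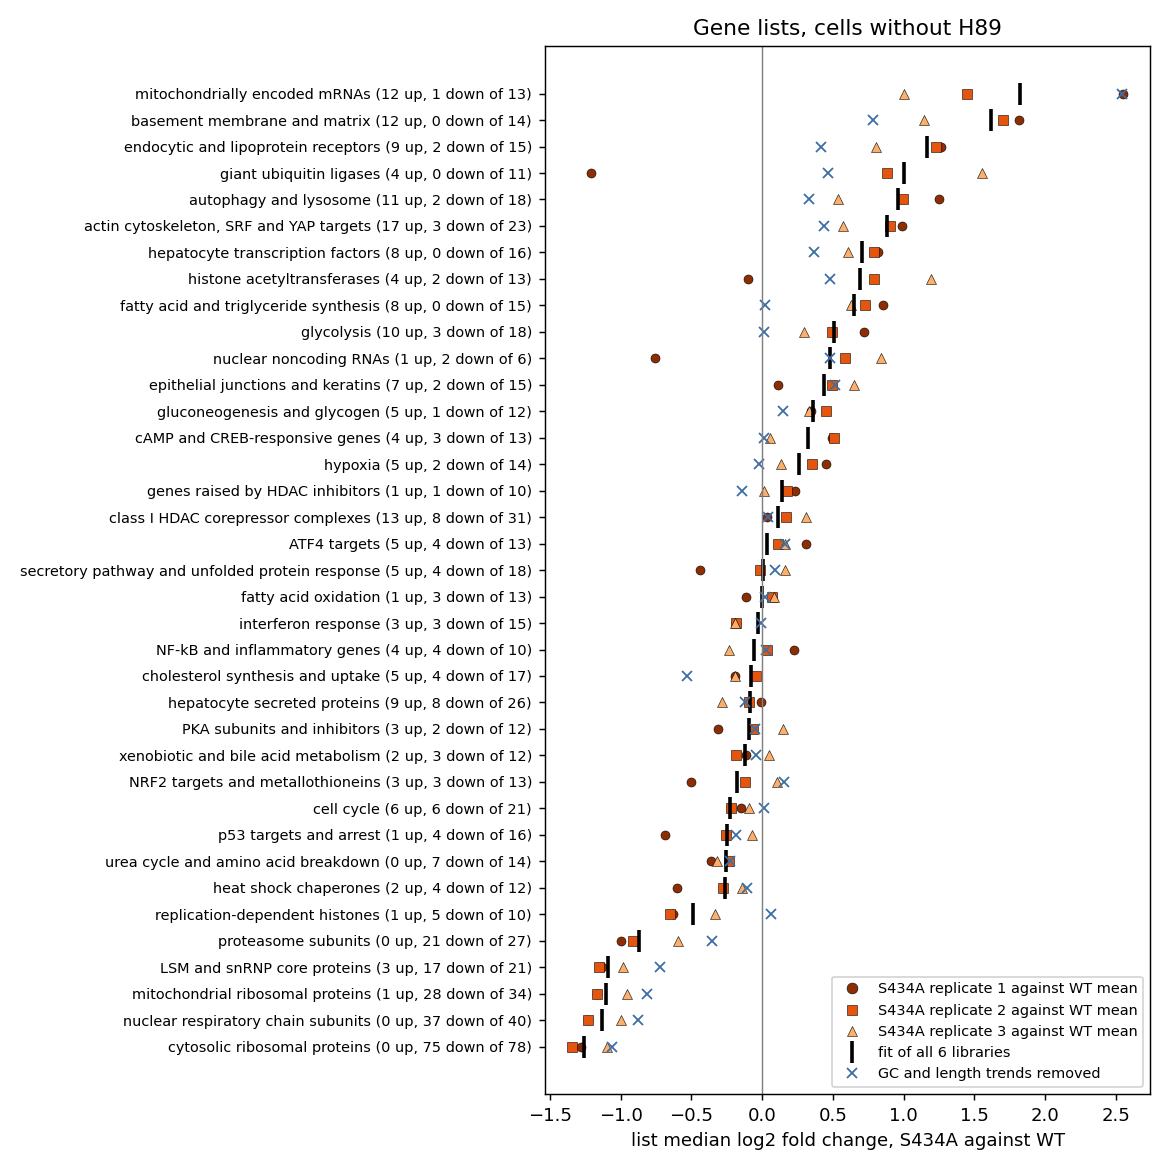
Median log2 fold change over the tested members of each gene list (x axis, log2 units) for each S434A library against the WT mean, for the fit of all 6 libraries (bar) and with GC and length trends removed (cross), cells without H89. Cytosolic ribosomal protein genes lie near -1.26 in every library, while giant ubiquitin ligases run from -1.21 in replicate 1 to 1.55 in replicate 3.

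Stress and inflammation genes held some large single changes. Of 10 NF-kB and inflammatory genes 4 rose and 4 fell, against 24% and 23.6% of all genes. With trends removed 2 rose and 2 fell. CCL20, a chemokine, was at 980.2, 985 and 989 CPM in WT and at 129, 264 and 345 CPM in S434A (-2.0015, SE 0.34, and -1.07 with trends removed). ICAM1, an adhesion receptor, was at 82.6, 85.2 and 87.7 CPM in WT and at 275, 220.2 and 158 CPM in S434A (1.35, SE 0.20). Of 14 hypoxia genes 5 rose and 2 fell, with 3 rises without S434A replicate 2, 8 without replicate 3, and 4 rises and 5 falls with trends removed. BNIP3, a mitophagy receptor, was at 1104, 1090.3 and 1084 CPM in WT and at 386, 408 and 523 CPM in S434A (-1.32, SE 0.12). Of 15 genes of cell junctions and keratins 7 rose and 2 fell, and 11 rose without S434A replicate 1. CTNNB1, beta-catenin, was at 797, 797 and 776 CPM in WT and at 353, 410.4 and 493 CPM in S434A (-0.92, SE 0.13), and the N-cadherin gene CDH2 rose by 0.77. Of 13 NRF2 targets and metallothioneins 3 rose and 3 fell (5 rose and 1 fell with trends removed), with AKR1B10 among the falls (-0.95 and -0.58 with trends removed).

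Chaperones and stress pathways were split as well, as were all genes, of which 24% rose and 23.6% fell. Of 12 heat shock chaperone genes 2 rose and 4 fell. HSPA8, the constitutive HSP70, was at 979, 967 and 963 CPM in WT and at 557, 585 and 666 CPM in S434A (-0.69, SE 0.08), while its cofactor gene BAG3 rose by 1.22 (SE 0.19). Of 18 genes of the secretory pathway and unfolded protein response 5 rose and 4 fell, and 2 rose without S434A replicate 2. HSPA5, the main chaperone of the endoplasmic reticulum, rose by 0.45, and the translocon gene SEC61G fell by 1.48, or by 0.43 with trends removed. Of 13 targets of ATF4, the transcription factor of the integrated stress response, 5 rose and 4 fell, and without S434A replicate 2 1 rose and 2 fell. DDIT3, which encodes CHOP, was at 20.1, 22.1 and 20.1 CPM in WT and at 6.62, 9.47 and 10.1 CPM in S434A (-1.25, SE 0.19). Of 15 interferon response genes 3 rose and 3 fell. ISG15, a ubiquitin-like modifier, fell by 1.04 (SE 0.10), and OAS3 rose by 1.44 (SE 0.17, and 0.71 with trends removed).

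Genes of glucose output and fat oxidation went both ways, as did all genes, of which 24% rose and 23.6% fell. Of 12 genes of gluconeogenesis and glycogen 5 rose and 1 fell, with 3 rises and no fall without S434A replicate 2 and 3 rises and 2 falls with trends removed. G6PC1, glucose-6-phosphatase, was at 39.8, 40.5 and 41.4 CPM in WT and at 93.5, 83.8 and 60.4 CPM in S434A (0.97, SE 0.17, and 1.03 with trends removed). Of 13 fatty acid oxidation genes 1 rose and 3 fell, and 3 rose and 5 fell without S434A replicate 1. CPT1A, the gate of fatty acid entry into mitochondria, rose by 0.69 (0.28 without passing with trends removed), and ACADS, a dehydrogenase of short chains, fell by 0.60 (0.997 with trends removed). Of 6 nuclear noncoding RNAs 1 rose and 2 fell, and 4 rose without S434A replicate 1. NEAT1, the scaffold of paraspeckles, was the rise (0.84, SE 0.18, and 0.53 with trends removed), and it lost its call without S434A replicate 2 or WT replicate 2. GAS5 was at 308, 316 and 299 CPM in WT and at 89.2, 95.6 and 121 CPM in S434A (-1.59, SE 0.13), and SNHG1 fell too (-0.83, and -0.38 with trends removed). Both GAS5 and SNHG1 host small nucleolar RNAs. Of 10 replication-dependent histone genes 5 fell and 1 rose, but with trends removed 1 fell and 2 rose, and H2AC6 went from -0.90 to -0.04 without passing.

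Liver markers were present in all 6 libraries. Of the 10, 4 rose and 3 fell, against 24% and 23.6% of all genes, or 2 rose and 2 fell with trends removed. Their summed level was lower in S434A, at 23905, 42182 and 47990 CPM in replicates 1 to 3, against 66714 to 67472 CPM in WT. ALB was the largest member of the WT sum. Of 7 fibroblast markers only PDGFRB passed the filter. It was at 18.1, 17.9 and 18.6 CPM in WT and at 39.6, 35.7 and 24.4 CPM in S434A (0.87, SE 0.19), and at 0.03 without passing with trends removed. Its adjusted p was 0.056 without S434A replicate 2. THY1, COL1A2 and DCN had no counts, and the summed level of all 7 fibroblast markers, tested or not, was 17.98 to 18.6 CPM in WT and 24.4 to 39.7 CPM in S434A. Of 7 blood and endothelial markers 6 were matched, and PTPRC, CD34 and HBB had no counts. VWF was at 1.96, 1.91 and 1.63 CPM in WT and at 5.17, 6.70 and 3.43 CPM in S434A (1.47, SE 0.28, and 0.45 without passing with trends removed), CDH5 did not pass at 0.49, or at -0.11 with trends removed, and the 6 summed to 2.70 to 3.12 CPM in WT and 4.52 to 8.53 CPM in S434A. The part of such transcripts in the matrix and actin results was not tested. In these bulk samples, fewer cells with a transcript and less of it per cell cannot be told apart.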

How the data were processed

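RNA sequencing of 6 HepG2 libraries without H89 was compared. The members and gene lists were chosen with earlier results of these data known. The deposited table holds raw counts, whole numbers of read pairs, that featureCounts 2.0.1 assigned to exons, per the file headers. Reads were aligned with Bowtie 0.12.2 to hg19, per the submitters' processing notes. No option for strand is in the header, so antisense and overlapping genes, and pseudogene copies, can share counts. The sources used here do not give trimming, library kit or batches. Of 62475 identifiers 40639 matched a symbol. Positions and exon lengths are from the deposited table (hg19), while GENCODE 29 gave gene types and GC content.

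Genes were filtered with filterByExpr (minimum count 10) and scaled with TMM factors over all 12 libraries. The 6 libraries were fitted alone with edgeR 4.0.16 (R 4.3.3), robust quasi-likelihood F tests and Benjamini-Hochberg adjustment over 14435 genes. Trends on GC content and length were removed by an offset per library (splines with 5 degrees of freedom on each, and their product).

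Named genes were HDAC1, 12 leading rises and 12 leading falls (protein coding, not ribosomal or mitochondrial, at least 10 CPM in the higher genotype, called in the 3 fits named in the results, no overlap, widest gap), the 6 genes of widest S434A spread above 50 CPM, up to 4 members with the smallest p of each list, and the 6 most abundant secreted protein genes. Others, among them APOH, FGG, AGT, VTN, LAMA5, LAMB2, AGRN, COL18A1, CDK1, HDAC2, NR1H4, BIRC6, HERC1, MT-CO1, LRP5, CDKN1A, PCK1 and the exceptions within lists, were chosen after their values were seen.

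The labels do not tie libraries to cultures beyond biological replicates, so p-values measure the spread between these libraries. The fit shared its estimate of spread between genotypes, although the coefficient of variation was 0.351 in S434A and 0.0197 in WT. Its p-values can therefore be too small where the S434A libraries spread widely. With group weights limma-voom called 1382 genes higher and 1497 lower. Leaving out a library also leaves fewer in the fit, so a lost call need not depend on that library. In data simulated for this comparison with 14435 genes, 22%, 50% and 82% of 50 genes changed by 2, 3 and 5-fold were called, and 5 of 14235 unchanged genes. How these rates change when libraries differ along GC content and length, as the S434A libraries did, was not tested. Alternatives were RLE and upper-quartile factors, TMM factors from 6 libraries, a fit of 12 libraries, DESeq2 1.42.0, limma-voom with group weights (limma 3.58.1), no filter, at least 1 CPM in at least 3 libraries, a replicate block, trends removed with and without S434A replicate 1, and each library left out. Results of some genes are not reported here.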

Additional observations from a re-analysis of the deposited data

Results flagged for a closer look

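The genotype difference without H89 and the one with H89 differed at all 24 leading genes, by edgeR's test of the difference itself. Values are the log2 genotype effect (S434A minus WT) with H89 minus that without H89, from edgeR's quasi-likelihood test on all 12 libraries with adjustment over 14435 genes. For the rises they were HSPG2 at -2.91, FRAS1 at -2.10, LRP1 at -2.54, FN1 at -2.24, ATP2B4 at -1.72, NFATC2 at -1.70, MED12 at -2.13, CNTNAP1 at -2.22, POLR2A at -2.13, SEZ6L2 at -2.22, NCOA6 at -1.67 and RELN at -1.72. For the falls they were CSTA at 2.74, LSM3 at 2.49, HSPE1 at 2.48, CKS2 at 2.13, UQCRB at 2.33, POLR2K at 2.29, PSMA4 at 2.54, NDUFB3 at 2.35, ATP5MK at 2.28, HIGD1A at 2.61, SELENOK at 2.22 and MIX23 at 2.37. Adjusted p ran from 7.46e-06 to 0.00198. The test passed for 48% of all genes. The genes were chosen for their difference without H89 in the same libraries, so a pass is largely fixed by the choice. In each gene the WT libraries without H89 lay apart from the other 9 libraries. They also differed from them in how many counts ribosomal protein genes and mitochondrially encoded mRNAs took, and the part of this in the difference was not tested.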

How the results depend on the processing

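Genes called higher (1604) numbered 479 with the GC and length trends removed and 678 with, in addition, no S434A replicate 1. Genes called lower (1460) numbered 960 with TMM factors from the 6 untreated libraries and 836 with trends removed and no S434A replicate 1. Leaving out each library in turn gave 1237 to 2006 genes higher and 1184 to 1916 lower. A replicate block gave 1491 higher and 1404 lower. Deviations of same-numbered libraries correlated at 0.012, -0.052 and 0.087, and those of differently numbered libraries at -0.094 to 0.078. The WT libraries differed little from each other, so these values cannot tell whether the numbers pair the samples. Of 3890 values of 229 genes under alternatives, 3626 kept their direction and side of the test, 152 no longer passed, 73 newly passed and 39 changed sign. The log2 fold change changed sign with RLE factors in HDAC1 (-0.022). It did so with no filter in HDAC1 (-0.0017). It did so with trends removed and no S434A replicate 1 in TOP2A (0.21), C5 (0.083), CSE1L (0.23), MCM5 (-0.031), VEGFA (-0.17), MT-ND3 (0.21), TF (-0.084), SNRNP70 (-0.12), LSM2 (0.27), SDHA (-0.33), NDUFV2 (0.63), RPLP2 (0.065) and CDH5 (-0.069). It did so with trends removed in PC (-0.012), MCM5 (-0.10), VEGFA (-0.30), MT-ND3 (0.23), SNRNP70 (-0.23), LSM2 (0.23), SDHA (-0.36), NDUFV2 (0.47) and CDH5 (-0.11). It did so with TMM factors from 6 libraries in LSM2 (0.13), RPL28 (0.061), RPLP2 (0.14), COL4A2 (0.079), CDKN1A (0.12) and PCK1 (0.15). It did so with DESeq2 in LSM2 (0.0095), RPLP2 (0.019) and PCK1 (0.016). With a library left out, the sign turned over the ranges of HDAC1 (-0.034 to 0.090), TOP2A (-1.32 to 0.081), NDUFV2 (-0.57 to 0.018), RPLP2 (-0.16 to 0.0034) and COL4A2 (-0.46 to 0.044). With TMM factors from 6 libraries each of these genes shifted by 0.19, and the cause of the other changes was not tested. The difference of genotype effects kept direction and call at all 24 leading genes under RLE and upper-quartile factors, a replicate block and trends removed. These genes were chosen by their gap in the same untreated libraries and for being called with trends removed. That they kept the call is therefore largely fixed by the choice. With 17562754 counts or more in each library, genes under 1 CPM rest on few reads.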
